A study of Mus musculus with 16 samples.

Results

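The 8 genes described here encode molecules that neutrophils use to roll on, stick to and cross the vessel wall, or the partners of such molecules. They were chosen by name, without the alpha chains of the β2 integrins, and are 8 of the 49315 genes in the count files. They were *Selplg*, *Cd44*, *Itga4*, *Itgb1*, *Itgb2l*, *Pecam1*, *Icam1* and *Cd47*. RNA was sequenced from sorted neutrophils of WT and αD KO mice, taken from blood or from lung. The mice were male and 8 to 12 weeks old, and they were untreated (0h) or sampled 12 hours after cecal ligation and puncture (CLP), a surgical model of abdominal sepsis. The 8 groups were WT blood, WT lung, αD KO blood and αD KO lung, each at 0h and at 12h. The αD KO mice carry a knockout of integrin αD (CD11d, gene *Itgad*). Each group had 3 count files from 2 samples. Sample 1 has 2 files, libraries 1a and 1b below, and sample 2 has 1, library 2. Nothing states that all 3 came from separate animals, so the p-values measure the spread between these libraries, part of which may be technical.

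Leukocytes leave the blood in steps. Selectins on activated endothelium catch carbohydrate-bearing ligands such as PSGL-1 (*Selplg*) and CD44, and the cell rolls. Integrins then bind immunoglobulin superfamily ligands such as VCAM-1 and ICAM-1, and the cell arrests. Molecules at the endothelial junction, of which PECAM-1 is the best known, guide it through the wall, and CD47 on the leukocyte binds SIRPα and thrombospondin-1. CD44 is also the main receptor for hyaluronan. Integrin α4 (*Itga4*) pairs with β1 (*Itgb1*) to form VLA-4, the VCAM-1 receptor, or with β7 (*Itgb7*) to form a receptor for MAdCAM-1. *Itgb2l* is a mouse gene related to the β2 chain gene *Itgb2*.

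The genes lie on different chromosomes of the mouse build GRCm38, which the submitters' processing notes name, apart from 2 pairs. *Itga4* (chr2:79255426-79333123, plus strand) and *Cd44* (chr2:102811141-102901665, minus strand) share chromosome 2, and *Cd47* (chr16:49855618-49915010, plus strand) and *Itgb2l* (chr16:96422288-96443619, minus strand) share chromosome 16. *Selplg* lies at chr5:113818536-113832644 (minus strand), *Itgb1* at chr8:128685654-128733200 (plus strand), *Icam1* at chr9:21015985-21028817 (plus strand) and *Pecam1* at chr11:106654217-106750628 (minus strand). All 8 are protein-coding genes. Exons of *Itga4* overlap those of *Cerkl* on the other strand over 1124 bases, and exons of *Icam1* overlap those of *Gm47079* over 511 bases. Reads from such a stretch cannot be told apart without the strand. *Cerkl* had 1 to 72 counts per library, at most 9.52% of the *Itga4* counts, and *Gm47079* had 0 to 12, at most 1.03% of the *Icam1* counts.

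*Itga4*, *Itgb2l*, *Icam1* and *Cd47* were the members with a called change between 0h and 12h, and the bases upstream of their RefSeq starts (GRCm38.p6) are shown here because their levels are the ones that changed. RefSeq gave such a window for 6 of the 8 genes. Each window ends just before the start, or, for *Cd47* and *Itgb2l*, before the GENCODE gene that begins further upstream. Capitals mark matches to 5 motifs searched on both strands.
Itga4 promoter, chr2:79255176-79255425, plus strand: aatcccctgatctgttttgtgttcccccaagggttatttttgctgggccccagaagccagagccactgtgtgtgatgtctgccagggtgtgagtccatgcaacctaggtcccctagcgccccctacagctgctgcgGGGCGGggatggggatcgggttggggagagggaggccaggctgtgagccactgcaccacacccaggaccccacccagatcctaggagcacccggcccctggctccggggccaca
Itgb2l promoter, chr16:96443620-96443864, minus strand: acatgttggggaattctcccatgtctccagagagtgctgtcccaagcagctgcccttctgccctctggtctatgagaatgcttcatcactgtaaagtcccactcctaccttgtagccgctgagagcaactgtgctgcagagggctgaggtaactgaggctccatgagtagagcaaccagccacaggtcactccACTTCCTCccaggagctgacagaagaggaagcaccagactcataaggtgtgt
Icam1 promoter, chr9:21015690-21015939, plus strand: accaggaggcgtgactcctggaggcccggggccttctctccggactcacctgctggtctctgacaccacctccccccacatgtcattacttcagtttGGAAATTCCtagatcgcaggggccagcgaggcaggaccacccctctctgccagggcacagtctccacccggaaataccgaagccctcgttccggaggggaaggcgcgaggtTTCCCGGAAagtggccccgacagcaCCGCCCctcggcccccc
Cd47 promoter, chr16:49855404-49855617, plus strand: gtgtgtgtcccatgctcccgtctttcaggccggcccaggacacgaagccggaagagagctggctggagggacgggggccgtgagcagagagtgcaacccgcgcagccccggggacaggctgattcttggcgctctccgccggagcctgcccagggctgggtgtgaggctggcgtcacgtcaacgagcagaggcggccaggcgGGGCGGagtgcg

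The *Icam1* window held GGAANTTCC, a core of the NF-κB site, from 153 to 145 bases before the start, and 0.813% of all 32851 windows of 250 bases held it. It also held TTCNNNGAA, the spacing of a STAT site, from 42 to 34 bases before the start (7.02% of windows). The *Itgb2l* window held GAGGAAGT, an ETS site of the kind bound by PU.1, on the reverse strand from 57 to 50 bases before the start (2.44% of windows). GGGCGG, the GC box bound by Sp1, was found in the *Itga4*, *Icam1* and *Cd47* windows and in 32.7% of all windows. In *Cd47* a second GC box, from 28 to 23 bases before the start, lies past the printed bases. TTGCNNAA, the spacing of a C/EBP site (9.56% of windows), was in none of the 4 windows. These matches are letters in a sequence and not measured sites.

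Total counts per library ranged from 5753476 to 29984954 (median 18741144), and the 8 libraries 1b were shallower (5753476 to 17976890) than most others. The RNA of the knocked-out gene was higher in the libraries labelled αD KO, against what the label states. *Itgad* was at 12.5 to 102 CPM (counts scaled to a common library size) in the 12 αD KO libraries and at 0.0583 to 3.66 CPM in the 12 WT libraries. The counts are per gene and not per exon, so they do not tell which part of the gene was read, and genotypes are named below as labelled. The neutrophil list (*S100a8*, *S100a9*, *Ly6g*, *Csf3r*, *Cxcr2*, *Retnlg*, *Mmp9* and *Itgam*) summed to 28930 to 196600 CPM, and all 8 genes were present in every group. Of the other cell types, platelet genes summed to 13.4 to 951 CPM, T and NK cell genes to 8.81 to 364 CPM, B cell genes to 34.8 to 1359 CPM, monocyte and macrophage genes to 528 to 1768 CPM, endothelial genes to 3.44 to 166 CPM, lung epithelial genes to 3.15 to 806 CPM and erythroid genes to 27.6 to 9119 CPM. In these bulk libraries fewer cells of a type and less RNA per cell cannot be told apart.

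3 of the 6 αD KO lung libraries did not fall with the other libraries of their time. Over the 1337 genes called between WT lung 12h and 0h, members left out, 96.9% of genes in library 2 of the group labelled αD KO lung 0h were nearer to the WT lung 12h mean than to the 0h mean. In the libraries labelled αD KO lung 12h it was 2.32% in library 1a, 80.7% in library 1b and 14.5% in library 2. The remaining αD KO lung 0h libraries were at 7.70% and 6.58%, and all 12 blood libraries were on the side of their own time (2.84% to 24.3% at 0h and 79.7% to 87.5% at 12h). Each αD KO lung group therefore held 1 library unlike the other two, namely αD KO lung 0h, library 2, and αD KO lung 12h, library 1b. Of these, the 12h library was the one on the side of its label, and libraries 1a and 2 of that group were not. The time changes of the 8 members in αD KO lung are given with and without the 2 libraries that stood apart. For these changes library 1b, which followed its label at both times, is also given by itself.

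**Figure D1:**
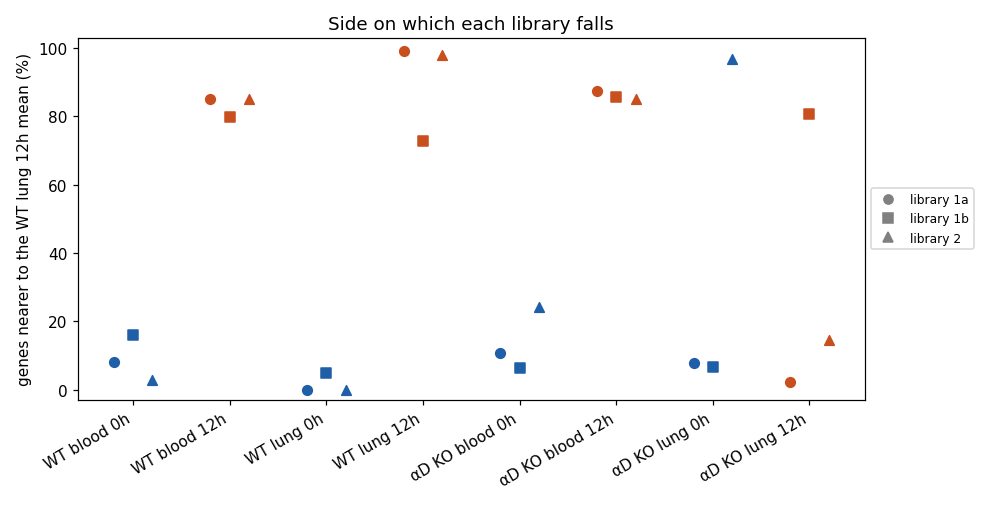
Percent of 1337 genes whose level in a library is nearer to the WT lung 12h mean than to the WT lung 0h mean (y axis), for the 24 libraries by group (x axis), with symbols for libraries 1a, 1b and 2 and colour for time. The WT lung libraries themselves set the means; in αD KO lung 1 library at 0h (96.9%) and 1 at 12h (80.7%) sit high and the other 4 low.

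Per kilobase of exon, *Selplg* was the most abundant member, with a median of 469.5 CPM per kb over the 24 libraries. *Cd44* followed at 197.7 CPM per kb and was below *Selplg* in 24 of 24 libraries. It was above *Itgb2l*, the next by median, in 16 of 24. The order by median pools groups that differ, since in WT blood at 12h *Itgb2l* averaged 489 CPM per kb, *Selplg* 398 and *Cd44* 144. *Itgb2l* (median 74.4 CPM per kb) and *Cd47* (63.1) came next and had no fixed order, since *Itgb2l* was above *Cd47* in 7 of 24 libraries. *Itgb1* (18.2), *Itga4* (11.7) and *Icam1* (9.98) also changed places, each being above the next in 12 of 24 libraries. *Pecam1* had the lowest median, 2.47 CPM per kb, and was below *Icam1* in 24 of 24 libraries. The spread over libraries differed between genes far more than the order. The highest CPM of a library was 3.59 times the lowest for *Selplg*, 4.09 times for *Cd44*, 7.22 times for *Itgb1* and 10.6 times for *Pecam1*. It was 20.7 times for *Cd47*, 41.3 times for *Itga4*, 101 times for *Icam1* and 371 times for *Itgb2l*.

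**Figure D2:**
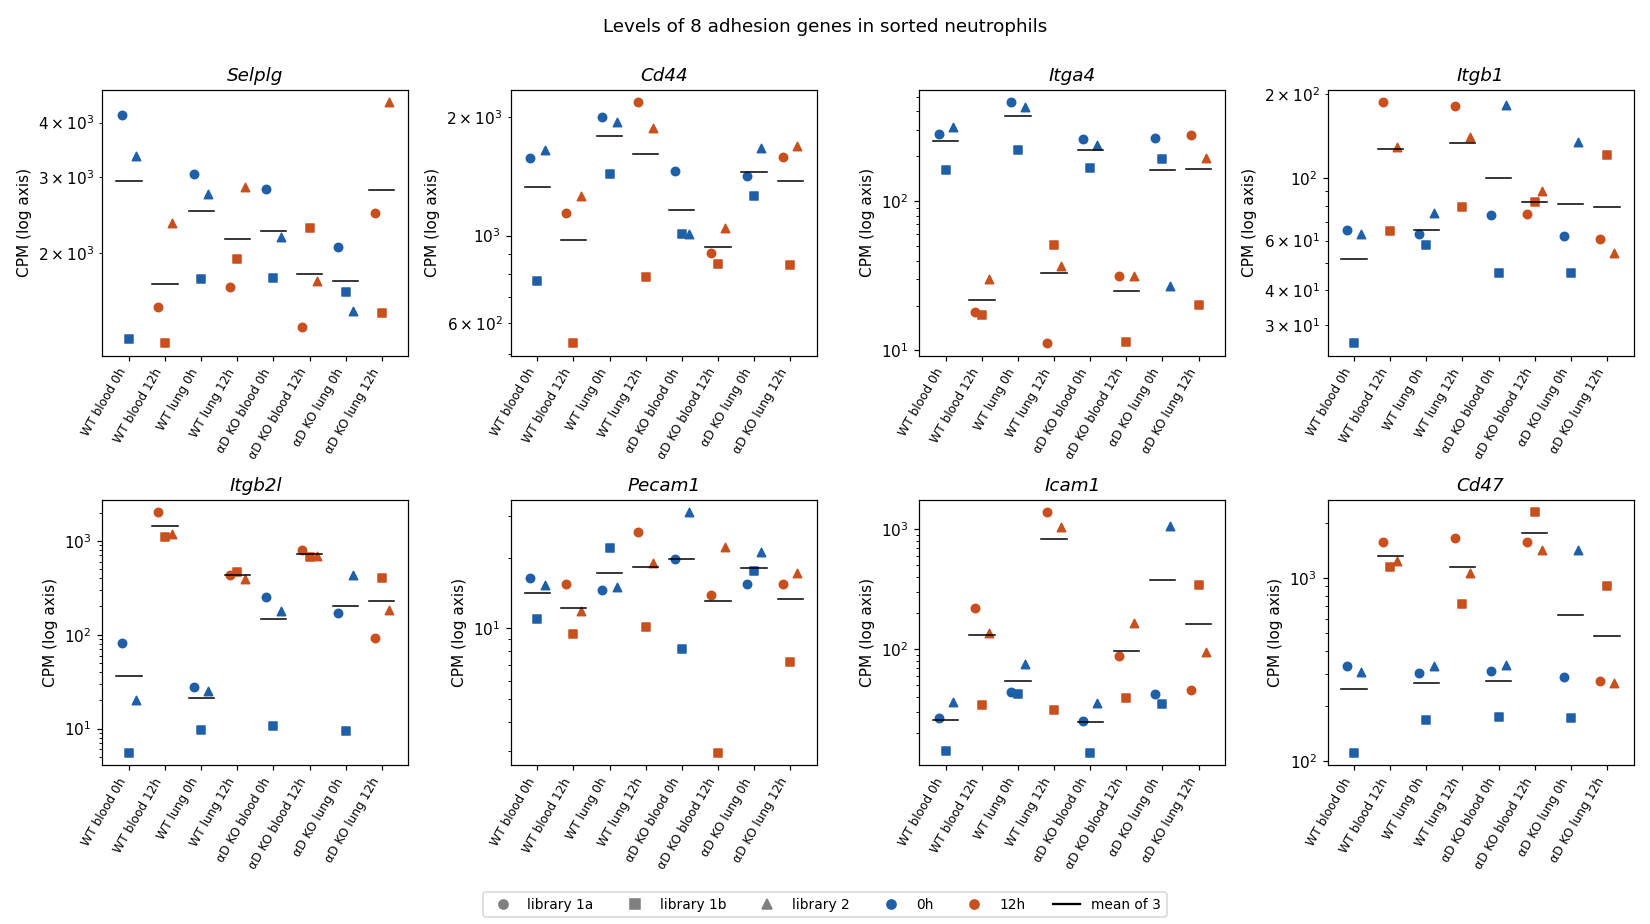
CPM (y axis, log scale) of each of the 8 genes in the 8 groups (x axis), with 3 libraries per group as points (circle 1a, square 1b, triangle 2), blue at 0h and orange at 12h, and a bar at the mean. In WT blood, WT lung and αD KO blood the 12h libraries lie below the 0h libraries for Itga4 and above them for Cd47 and Itgb2l without overlap, whereas Selplg, Cd44 and Pecam1 overlap between times in every panel.

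The first question was how the genes changed from 0h to 12h after CLP. In WT blood *Itga4* fell and *Itgb2l*, *Icam1* and *Cd47* rose, so that 4 of 8 members were called, beside 13.5% of all 14625 genes tested (edgeR quasi-likelihood test, called where the adjusted p was under 0.05 and the log2 fold change beyond 1 in size). In WT lung *Itga4* fell and *Itgb2l* and *Cd47* rose, 3 of 8 members, beside 9.02% of 14859 genes. In αD KO blood *Itga4* fell and *Cd47* rose, 2 of 8 members, beside 8.75% of 14156 genes. In αD KO lung no member was called by edgeR, beside 0% of 17939 genes, and no member had an unadjusted p under 0.05. DESeq2 also called no member there, beside 0% of all genes. The median log2 fold change of the 8 members was 0.33 in WT blood, 0.46 in WT lung, -0.48 in αD KO blood and -0.06 in αD KO lung. Over all genes tested it was -0.15, 0.03, -0.14 and -0.05.

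**Figure D3:**
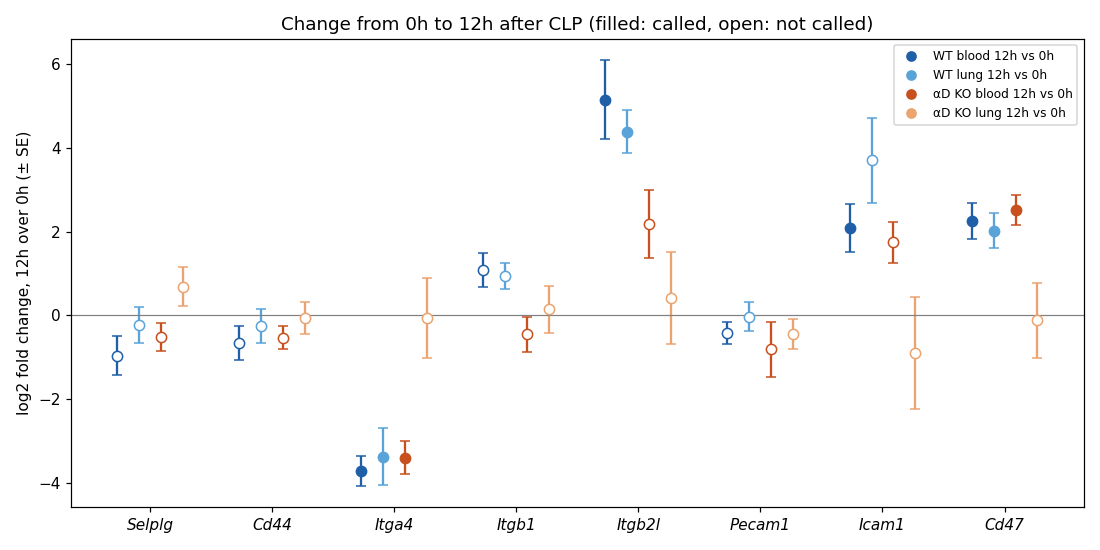
Fitted log2 fold change from 0h to 12h (y axis, bars are the SE, n = 3 libraries per group) of the 8 genes (x axis) in WT blood, WT lung, αD KO blood and αD KO lung. Filled symbols passed the test; Itga4 (-3.72, -3.37 and -3.40) and Cd47 (2.25, 2.03 and 2.53) are filled in 3 of the 4 comparisons, and no αD KO lung symbol is filled.

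*Selplg* encodes PSGL-1, the main ligand for P-selectin on leukocytes. In WT blood it was at 4167, 1271 and 3343 CPM at 0h and at 1505, 1241 and 2352 CPM at 12h in libraries 1a, 1b and 2. The WT blood groups overlapped because 0h library 1b was below 12h libraries 1a and 2, and the log2 fold change of -0.96 (SE 0.47) was not called (adjusted p = 0.226, edgeR). Without WT blood 0h library 1b it was -1.27 and called (adjusted p = 0.0248), beside 18.4% of all genes in that fit. In WT lung *Selplg* averaged 2508 ± 679 CPM (SD, n = 3) at 0h and 2153 ± 617 CPM at 12h, a log2 fold change of -0.23 (SE 0.43). The means in αD KO blood were 2250 ± 536 CPM at 0h and 1789 ± 471 CPM at 12h, with a log2 fold change of -0.51 (SE 0.33). Those groups overlapped as well. The highest value of the series was 4450 CPM in library 2 of the group labelled αD KO lung 12h, and the other αD KO lung libraries were at 1455 to 2472 CPM. In αD KO lung the log2 fold change was 0.68 (SE 0.47), or 0.80 (SE 0.45) without the libraries that stood apart, and the 12h level in library 1b was 0.893 times the 0h level. The summed monocyte and macrophage genes had a Pearson correlation of 0.73 with *Selplg* over the 24 libraries, as a description, and these cells also use PSGL-1. The authors state no purity for the sort on Ly6G, CD11b and CD45.2. The part of monocytes and macrophages in the levels was not tested.

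*Cd44* stayed within a narrow range. It averaged 1331 ± 491 CPM (SD, n = 3) at 0h and 977 ± 389 CPM at 12h in WT blood, a log2 fold change of -0.66 (SE 0.41, adjusted p = 0.331, edgeR). Its WT lung mean was 1790 ± 313 CPM at 0h and 1612 ± 732 CPM at 12h, a change of -0.26 (SE 0.41). The corresponding means in αD KO blood were 1159 ± 258 and 933 ± 103.1 CPM, a change of -0.54 (SE 0.27). For αD KO lung they were 1449 ± 206 and 1372 ± 461 CPM, a change of -0.06 (SE 0.38), or 0.18 (SE 0.39) without the libraries that stood apart, and in library 1b the 12h level was 0.668 times the 0h level. The groups overlapped between times in each of these comparisons. *Cd44* was the member with the smallest spread next to *Selplg*, and its lowest value, 533 CPM, was in WT blood 12h library 1b.

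*Itga4*, the α4 chain of the VCAM-1 receptor, fell in WT blood from 281, 161 and 314 CPM at 0h to 18.02, 17.2 and 29.9 CPM at 12h (libraries 1a, 1b and 2). It fell in WT lung from 460, 222 and 431 CPM to 11.1, 50.9 and 37.0 CPM. It fell in αD KO blood from 261, 167 and 238 CPM to 31.5, 11.5 and 31.7 CPM. In all 3 comparisons every 12h library was below every 0h library. The log2 fold changes were -3.72 (SE 0.36, adjusted p = 0.00188) in WT blood, -3.37 (SE 0.69, adjusted p = 0.0260) in WT lung and -3.40 (SE 0.39, adjusted p = 0.00391) in αD KO blood by edgeR. This is 13.2-fold, 10.4-fold and 10.5-fold lower at 12h. *Itga4* was at 266, 191 and 26.9 CPM at 0h and at 279, 20.2 and 196 CPM at 12h in αD KO lung. Library 2 of the group labelled αD KO lung 0h was as low as the 12h groups, and αD KO lung 12h, libraries 1a and 2, were as high as the 0h groups. The log2 fold change there was -0.06 (SE 0.95), and without both libraries that stood apart it was -0.04 (SE 0.34). In library 1b alone the 12h level of *Itga4* was 0.106 times the 0h level, a value with no test.

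Single libraries moved the *Itga4* calls. The adjusted p (edgeR) without each library ran from 0.00115 to 0.0905 in WT blood. It was above 0.05 without 0h library 2 (0.0589), without 12h library 1a (0.0860) and without 12h library 2 (0.0905). The WT lung value was above 0.05 without 0h library 1a (0.207), 0h library 2 (0.191), 12h library 1a (0.0934) or 12h library 2 (0.161). The αD KO blood value was above 0.05 without 0h library 1a (0.0507). The fold change kept its direction in every one of these fits, between -4.22 and -3.03.

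The level of *Itga4* moved with the list of 8 B cell genes, among them *Ighm*, *Cd79a* and *Ms4a1*, with a Pearson correlation of 0.92 over the 24 libraries. B cells also express α4. The list summed to 265 to 1202 CPM in WT blood at 0h and 41.2 to 251 CPM at 12h, and to 414 to 771 CPM in WT lung at 0h and 34.8 to 84.4 CPM at 12h. The αD KO blood sums were 321 to 1359 CPM at 0h and 38.5 to 144 CPM at 12h. *Ighm* made up most of each sum, at 240 to 1186 CPM in WT blood at 0h and 30.7 to 162 CPM at 12h. *Cd79a*, a defining B cell gene, was lower, at 4.50 to 19.9 CPM in WT blood at 0h and 5.37 to 25.6 CPM at 12h, and these ranges overlapped. In WT lung its ranges did not overlap, at 10.9 to 16.7 CPM at 0h and 4.36 to 6.48 CPM at 12h. The αD KO lung sums were 424, 276 and 54.1 CPM at 0h and 524, 44.6 and 522 CPM at 12h, low in the same 2 libraries as *Itga4*. The sort was gated on Ly6G, CD11b and CD45.2, and the part of B cells in the fall of *Itga4* was not tested.

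*Itgb7*, the other β partner of α4, was singled out after its values were seen. It fell in WT blood from a mean of 150 ± 74.1 CPM (SD, n = 3) to 18.5 ± 12.3 CPM, a log2 fold change of -3.20 (SE 0.55, adjusted p = 0.0120, edgeR). It also fell in αD KO blood, from 126.5 ± 34.0 to 13.4 ± 2.42 CPM, a change of -3.45 (SE 0.28, adjusted p = 0.00120). Its change of -2.24 (SE 0.65) in WT lung was not called (adjusted p = 0.0683). B cells express this chain as well, and their part was not tested.

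*Itgb1*, the β1 partner of α4, was higher at 12h on average in WT mice. In WT blood it was at 65.3, 25.8 and 63.2 CPM at 0h and at 186, 64.8 and 130 CPM at 12h in libraries 1a, 1b and 2. Each 12h library was above the 0h library of the same number, by 2.86, 2.51 and 2.06 times, but 12h library 1b lay within the 0h range. The log2 fold change of 1.09 (SE 0.40) was not called without a block (adjusted p = 0.119). It was called when the library number was a block, with a change of 1.09 (SE 0.26, adjusted p = 0.0274, edgeR), beside 18.4% of all genes in that fit. In WT lung *Itgb1* was at 63.5, 57.7 and 75.0 CPM at 0h and at 181.5, 79.3 and 141 CPM at 12h, with no overlap, a change of 0.94 (SE 0.30, adjusted p = 0.0874).

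In αD KO mice the *Itgb1* groups overlapped. Blood values were at 73.8, 46.2 and 182 CPM at 0h and at 74.4, 82.6 and 89.9 CPM at 12h, a log2 fold change of -0.45 (SE 0.43, adjusted p = 0.526, edgeR). The high value of 182 CPM was in αD KO blood 0h library 2. That library also held the most T and NK cell transcripts (364 CPM summed over 9 genes, against 8.81 to 31.5 CPM in all others) and the most platelet transcripts (951 CPM). *Cd79a* was at 139.5 CPM in it. Library 1a of that group had 828 CPM of platelet transcripts and *Itgb1* at 73.8 CPM. T cells, NK cells, B cells and platelets express β1 as well, and their part in this value was not tested. Lung values of *Itgb1* were at 62.4, 45.9 and 135 CPM at 0h and at 61.0, 121 and 54.2 CPM at 12h, high in the 1 library of each group that stood apart. Their log2 fold change was 0.15 (SE 0.56) with all αD KO lung libraries and -0.01 (SE 0.30) without those that stood apart. In library 1b the 12h level was above the 0h level, 2.64 times in αD KO lung and 1.79 times in αD KO blood. In libraries 1a and 2 it was 0.977 and 0.402 times in αD KO lung and 1.008 and 0.4945 times in αD KO blood. These ratios had no test.

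*Itgb2l* had the widest range of the members and was the member that rose most in WT mice. In WT blood it was at 82.5, 5.48 and 20.2 CPM at 0h and at 2035, 1092 and 1181 CPM at 12h (libraries 1a, 1b and 2). WT lung had it at 28.0, 9.74 and 25.4 CPM at 0h and at 437, 468.5 and 392.5 CPM at 12h. The groups did not overlap in either tissue. The log2 fold changes were 5.15 (SE 0.95, adjusted p = 0.0144) in WT blood and 4.39 (SE 0.52, adjusted p = 0.00508) in WT lung by edgeR, that is 35.6-fold and 20.99-fold. *Itgb2*, its relative and the β chain of all β2 integrins, changed by 0.62 (SE 0.43) in WT blood and 0.59 (SE 0.38) in WT lung and was not called (adjusted p = 0.388 and 0.368). Reads were counted only where they mapped uniquely, so stretches that both genes share count for neither.

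In αD KO blood *Itgb2l* was at 253, 10.6 and 179 CPM at 0h and at 794, 681 and 688 CPM at 12h. The groups did not overlap, but 0h library 1b was far below the other 0h libraries and the log2 fold change of 2.19 (SE 0.81) was not called (adjusted p = 0.126, edgeR). Without 0h library 1b, the low one, it was 1.65 and called (adjusted p = 0.0341), beside 4.67% of all genes in that fit. *Itgb2l* was at 172, 9.50 and 432 CPM at 0h and at 92.5, 405 and 184 CPM at 12h in αD KO lung, a change of 0.42 (SE 1.10). Without the libraries that stood apart it was 0.57 (SE 0.80), and in library 1b alone the 12h level was 42.6 times the 0h level. The WT blood call was lost without 0h library 2 (adjusted p = 0.160), 12h library 1a (0.155) or 12h library 2 (0.1425). The call in WT lung was lost without 0h library 1a (0.116), 0h library 2 (0.124), 12h library 1a (0.0613) or 12h library 2 (0.0607).

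The level of *Itgb2l* followed the granule genes of maturing neutrophils, with a Pearson correlation of 0.98 over the 24 libraries with the summed list (*Elane*, *Mpo*, *Prtn3*, *Ctsg*, *Camp*, *Ltf*, *Ngp*, *Chil3*, *Lcn2* and *Cebpe*). The list summed to 288 to 7434 CPM in WT blood at 0h and 79930 to 188500 CPM at 12h. It summed to 510 to 2158 CPM in WT lung at 0h and 32570 to 89850 CPM at 12h, and to 563 to 20270 CPM and 38900 to 127400 CPM in αD KO blood. The αD KO lung sums were 743 to 79140 CPM at 0h and 8351 to 27710 CPM at 12h. Secondary granule genes carried the sum: *Ngp* was at 39060 to 86790 CPM and *Ltf* at 5734 to 25610 CPM in WT blood at 12h. The earliest granule genes *Elane* (at most 0.251 CPM) and *Mpo* (at most 0.602 CPM) were near 0 there. The 3 genes closest to *Itgb2l* over the 24 libraries, among 8231 genes with a mean of at least 5 CPM, were *4930438A08Rik* (r = 0.99), *Cd177* (r = 0.99) and *Serpinb1a* (r = 0.99). *Cd177* encodes a neutrophil surface protein that binds PECAM-1. The part of the granule stage in the rise of *Itgb2l* was not tested.

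**Figure D4:**
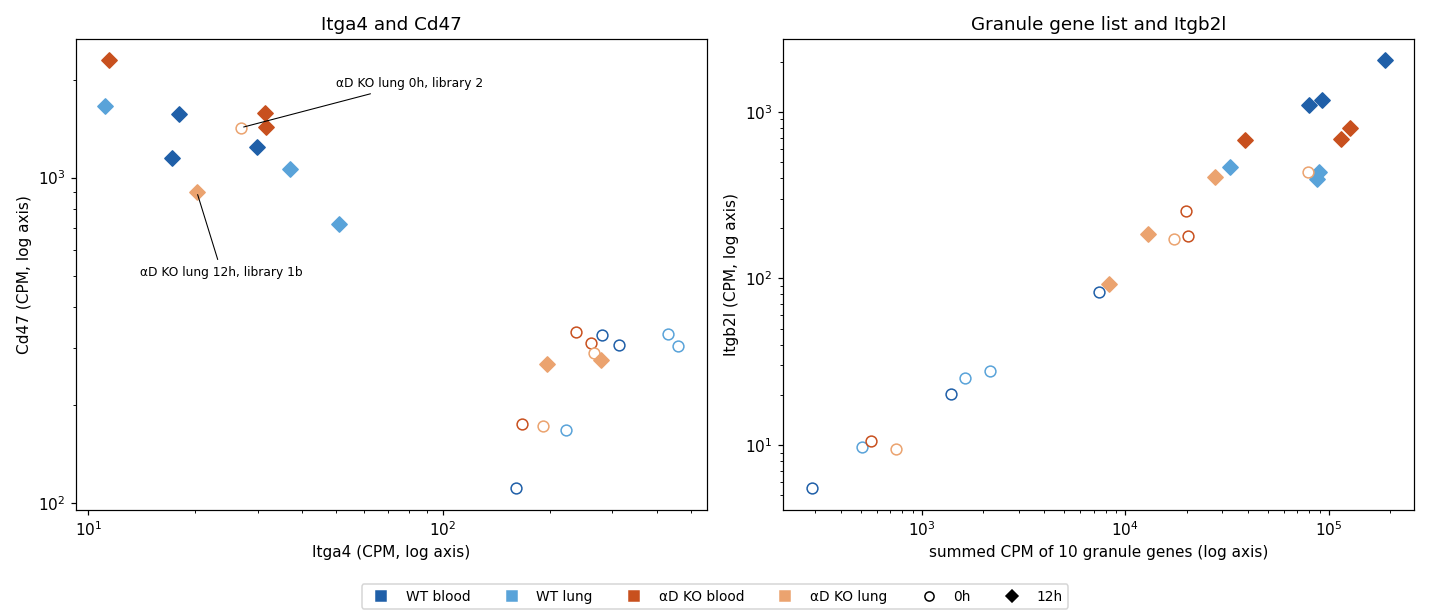
Left, Cd47 against Itga4 in CPM (both axes log) for the 24 libraries, with open circles at 0h, filled diamonds at 12h and colour by genotype and tissue; the libraries form a low-Itga4 and a high-Itga4 group, and the named αD KO lung libraries lie with the first. Right, Itgb2l in CPM against the summed CPM of 10 granule genes (both axes log); points rise from 5.48 CPM at a sum of 288 to 2035 CPM at 188500.

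*Icam1* encodes ICAM-1, the ligand of β2 integrins, which endothelium and activated neutrophils both express. In WT blood it rose from 26.8, 14.1 and 36.3 CPM at 0h to 219, 34.6 and 137 CPM at 12h (libraries 1a, 1b and 2). Every 12h library was above the 0h library of its number, by 8.19, 2.45 and 3.79 times, although 12h library 1b (34.6 CPM) lay below 0h library 2 (36.3 CPM). The log2 fold change was 2.09 (SE 0.57, adjusted p = 0.0482, edgeR), close to the threshold. Of the 6 fits without a library, only the one without 12h library 1b kept the call (adjusted p = 0.0115). The others ranged from 0.0778 without 0h library 1b to 0.441 without 12h library 1a, with 0.268 without 0h library 1a, 0.205 without 0h library 2 and 0.373 without 12h library 2.

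In WT lung *Icam1* was at 44.2, 42.9 and 75.3 CPM at 0h and at 1389, 31.1 and 1039 CPM at 12h. 2 of the 3 12h libraries were 31.4 and 13.8 times the 0h library of their number, while library 1b was at 0.727 times. The mean at 12h was 820 ± 705 CPM (SD, n = 3). The log2 fold change of 3.71 (SE 1.02) was not called (adjusted p = 0.0589, edgeR). Without 12h library 1b it was 4.15 and called (adjusted p = 0.000415), beside 25.3% of all genes in that fit. The other changed members were shifted in that library too, with *Cd47* at 722 CPM, *Itgb2l* at 468.5 CPM and *Itga4* at 50.9 CPM, all outside the WT lung 0h range.

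*Icam1* was at 25.3, 13.7 and 35.4 CPM at 0h and at 87.3, 39.5 and 165.5 CPM at 12h in αD KO blood, and the groups did not overlap. The log2 fold change of 1.75 (SE 0.48) missed the threshold (adjusted p = 0.0592, edgeR). Without 12h library 1b it was 2.15 and called (adjusted p = 0.0248), beside 8.74% of all genes in that fit. αD KO lung had *Icam1* at 42.4, 35.2 and 1053 CPM at 0h and at 46.0, 344 and 94.1 CPM at 12h, a change of -0.90 (SE 1.35). Without the libraries that stood apart the sign turned, to 0.75 (SE 0.36, adjusted p = 0.427). In library 1b alone the 12h level was 9.80 times the 0h level. The genes closest to *Icam1* over the 24 libraries were *Tgm2* (r = 0.97), *Tnfaip3* (r = 0.95), which encodes an inhibitor of NF-κB signalling, and *Irak2* (r = 0.94), a kinase of the Toll-like receptor pathway.

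*Pecam1*, the junctional adhesion molecule, was low, and no change of it over time was called. It averaged 14.2 ± 2.84 CPM (SD, n = 3) at 0h and 12.2 ± 3.03 CPM at 12h in WT blood, a log2 fold change of -0.42 (SE 0.26, adjusted p = 0.339, edgeR). The WT lung means were 17.2 ± 4.14 and 18.2 ± 7.78 CPM, a change of -0.03 (SE 0.35). Those of αD KO blood were 19.7 ± 11.5 and 13.01 ± 9.66 CPM, a change of -0.81 (SE 0.66), and those of αD KO lung 18.04 ± 2.93 and 13.3 ± 5.34 CPM, a change of -0.44 (SE 0.35). Without the libraries that stood apart the αD KO lung change was -0.13 (SE 0.34), and in library 1b the 12h level was 0.410 times the 0h level. The groups overlapped in each comparison. Counts of *Pecam1* ran from 33 to 843 per library, so a change of the size seen in *Itga4* was within reach of the depth. The highest value, 31.2 CPM, was in αD KO blood 0h library 2, the library with the most platelet transcripts (951 CPM), and platelets carry PECAM-1. Library 1a of that group had 828 CPM of platelet transcripts and *Pecam1* at 19.6 CPM. The part of platelets in this value was not tested.

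*Cd47* encodes a surface protein that binds SIRPα and thrombospondin-1 and takes part in transmigration. In WT blood it rose from 329, 111 and 306 CPM at 0h to 1571, 1145 and 1245 CPM at 12h (libraries 1a, 1b and 2). It rose in WT lung from 304, 168 and 330 CPM to 1657, 722 and 1066 CPM, and in αD KO blood from 309.5, 175 and 336 CPM to 1576, 2295 and 1427 CPM. No 12h library overlapped the 0h range. The log2 fold changes by edgeR were 2.25 (SE 0.43, adjusted p = 0.0162) in WT blood, 2.03 (SE 0.42, adjusted p = 0.0260) in WT lung and 2.53 (SE 0.36, adjusted p = 0.00721) in αD KO blood. This is 4.76-fold, 4.08-fold and 5.77-fold higher at 12h.

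*Cd47* was at 289, 172 and 1423 CPM at 0h and at 274, 905 and 267 CPM at 12h in αD KO lung. The 2 high values were in the libraries that stood apart, and the log2 fold change of -0.11 (SE 0.90) became 0.14 (SE 0.34) without them. In library 1b alone the 12h level was 5.25 times the 0h level. The WT blood call was lost without 0h library 1a (adjusted p = 0.167, edgeR), 0h library 2 (0.175), 12h library 1a (0.279) or 12h library 2 (0.278). The WT lung call was lost without 0h library 1a (0.309), 0h library 1b (0.0579), 0h library 2 (0.331), 12h library 1a (0.221) or 12h library 2 (0.198). The αD KO blood call was lost without 0h library 1a (0.0708). In these 3 comparisons the log2 fold change lay between 1.61 and 2.74 in every fit without 1 library. Over the 24 libraries *Cd47* had a Pearson correlation of 0.89 with the granule list and 0.89 with the neutrophil list, whose part in the rise was not tested. Genes of the neutrophil list moved in both directions. In WT blood the median of *S100a8* went from 11470 to 81460 CPM and that of *Csf3r* from 10920 to 1457 CPM.

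*Thbs1* encodes thrombospondin-1, the secreted ligand of CD47. It rose from 105 ± 79.5 to 1990 ± 566 CPM (SD, n = 3) in WT blood, a log2 fold change of 4.13 (SE 0.78, adjusted p = 0.0157, edgeR). It rose by 3.65 in αD KO blood (SE 0.88, adjusted p = 0.0419). Its WT lung values were 13130, 89.4 and 5376 CPM at 12h against 59.99, 100.3 and 196 CPM at 0h, a change of 5.48 (SE 1.40, adjusted p = 0.0477). WT lung 12h library 1b lay within the 0h range, and it was below that range for *Icam1*.

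*Cd38* was the gene of the adhesion lists that rose most in each of these comparisons. Its product binds PECAM-1. It was at 0.544 to 4.59 CPM in WT blood at 0h and at 288 to 966.5 CPM at 12h, a log2 fold change of 7.48 (SE 0.95, adjusted p = 0.00420, edgeR). It rose by 6.22 (SE 0.68, adjusted p = 0.00492) in WT lung and by 5.08 (SE 0.87, adjusted p = 0.0139) in αD KO blood. *Cd177*, the other PECAM-1 partner, rose by 4.50 (SE 0.81, adjusted p = 0.0135) in WT blood and by 4.11 (SE 0.53, adjusted p = 0.00706) in WT lung. It was not called in αD KO blood (2.60, SE 0.72, adjusted p = 0.0602). *Pecam1* itself was not called in these comparisons.

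The wider set held 75 adhesion genes in 6 lists written from general knowledge, 73 of which were in the files. In WT blood 20 of 63 tested genes were called, 9 higher and 11 lower, which is 31.75% beside 13.5% of all genes. In WT lung 8 of 64 were called, 5 higher and 3 lower (12.5% beside 9.02%). Of 62 tested in αD KO blood, 14 were called, 3 higher and 11 lower (22.6% beside 8.75%). Of 68 tested in αD KO lung edgeR called none, with 1 at an unadjusted p under 0.05. Of the integrin chains outside the β2 family, members left out, 5 of 14 tested were lower and none higher in WT blood, with a median log2 fold change of -2.17. Among 13 in αD KO blood 5 were lower and none higher (median -2.30), and in WT lung 1 of 14 was lower (median -0.37), which is 7.14% beside 9.02% of all genes. The median over all genes was -0.15, -0.14 and 0.03 in these comparisons. *Itga2b* and *Itgb3*, called lower in WT blood, are also in the platelet list, whose sum was 84.3 to 224 CPM at 0h and 23.9 to 62.4 CPM at 12h in WT blood. In αD KO blood these sums were 55.5 to 951 and 17.6 to 91.2 CPM. The part of platelets in these counts was not tested. None of the 7 tested linkers of CD44 to hyaluronan or the cytoskeleton was called by edgeR in WT blood, WT lung or αD KO blood, with 0, 1 and 1 at an unadjusted p under 0.05.

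Of the genes that fell most, *Itga8*, an integrin chain of mesenchymal cells, was at 35.3 ± 14.1 CPM (SD, n = 3) in WT blood at 0h and 1.28 ± 1.43 CPM at 12h, a log2 fold change of -4.79 (SE 0.86, adjusted p = 0.0136, edgeR). Its log2 fold change was -3.57 in WT lung (SE 0.65, adjusted p = 0.0188) and -4.34 in αD KO blood (SE 0.61, adjusted p = 0.00696). *Cd226*, a receptor for PVR and nectin-2, fell in WT blood from 5.31 ± 2.86 to 0.301 ± 0.213 CPM (adjusted p = 0.0127) and in αD KO blood from 28.6 ± 24.7 to 1.28 ± 1.05 CPM (adjusted p = 0.0471). *Jam3*, a junctional adhesion molecule, fell in WT blood from 3.69 ± 0.44 to 0.119 ± 0.020 CPM (adjusted p = 0.00511) and in αD KO blood from 3.31 ± 1.72 to 0.113 ± 0.139 CPM (adjusted p = 0.0363). The 12h libraries held only 6 and 4 counts of *Jam3* in all, so the size of its fall is poorly known. *Itga2* fell in αD KO blood from 4.69 ± 2.07 to 0.221 ± 0.224 CPM (adjusted p = 0.0369), with 8 counts at 12h. Platelets also carry the products of *Cd226* and *Itga2*, and their part in these falls was not tested.

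*St3gal3* and *Fut4* encode enzymes that add sugars to selectin ligands. In WT lung their log2 fold changes were -3.28 (SE 0.48, adjusted p = 0.00991) and -1.80 (SE 0.34, adjusted p = 0.0201) by edgeR. *St3gal3* went from 7.81 ± 1.64 to 0.809 ± 0.174 CPM (SD, n = 3) and *Fut4* from 42.5 ± 9.41 to 12.5 ± 4.26 CPM. Both were also called lower in WT blood by edgeR, *St3gal3* at -2.24 (adjusted p = 0.0403) and *Fut4* at -1.65 (adjusted p = 0.0114). In αD KO blood *Fut4* was called at -1.81 (adjusted p = 0.01775). *Mcam*, an endothelial junction molecule, rose in αD KO blood from 6.56 ± 2.31 to 32.1 ± 9.60 CPM (adjusted p = 0.0200). It also rose in WT blood, from 2.99 ± 1.21 to 24.9 ± 4.22 CPM (adjusted p = 0.00641). Beside these, *Selplg*, which carries such sugars, was not called in any time comparison.

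The lung and blood of WT mice were then compared at each time. At 0h no member was called by edgeR, beside 0% of 15967 genes, or by DESeq2, beside 0.281% of all genes. By edgeR 1 member had an unadjusted p under 0.05. That member was *Icam1*, with 42.9 to 75.3 CPM in lung and 14.1 to 36.3 CPM in blood, no overlap and a log2 difference of 1.02 (SE 0.28, adjusted p = 0.9995). At 12h no member was called by edgeR, beside 0.0442% of 13590 genes, and *Itgb2l* and *Icam1*, the 2 members with an unadjusted p under 0.05, were called by DESeq2, which called 6.99% of all genes. *Itgb2l* was lower in lung without overlap, by a log2 difference of -1.55 (SE 0.41, adjusted p = 0.144). *Icam1* was higher in lung on average, by 2.61 (SE 1.04, adjusted p = 0.242), with library 1b against this direction. Without WT lung 12h library 1b both were called, *Itgb2l* at -1.92 (adjusted p = 0.00875) and *Icam1* at 3.15 (adjusted p = 0.00963), in a fit that called 20.2% of all genes. Endothelium also expresses *Icam1*, and the 12 endothelial genes summed to 36.0 to 166 CPM in the WT lung groups and 3.44 to 36.4 CPM in the WT blood groups. The WT lung 12h libraries had 73.8 to 130 CPM of them. The part of endothelium was not tested.

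In αD KO mice lung and blood gave no called member at 0h by edgeR, beside 0% of 19000 genes, or by DESeq2, beside 0.627%. By edgeR 1 member had an unadjusted p under 0.05. That member was *Icam1*, with a log2 difference of 3.84 (SE 1.32) that was 0.83 (SE 0.41) without the libraries that stood apart. At 12h edgeR again called none, beside 0.0548% of 14592 genes, although 2 members had an unadjusted p under 0.05, and *Itga4* was called by DESeq2, which called 7.17% of all genes. *Itga4* was at 20.2 to 279 CPM in αD KO lung and 11.5 to 31.7 CPM in αD KO blood, a log2 difference of 2.84 (SE 0.77, adjusted p = 0.113). *Cd47* was lower in lung without overlap, by -1.56 (SE 0.65, adjusted p = 0.209), and *Itgb2l* by -1.35 (SE 0.60, adjusted p = 0.231). Without αD KO lung 12h library 1b all 3 were called by edgeR, *Itga4* at 3.34 (adjusted p = 0.00497), *Itgb2l* at -2.34 (adjusted p = 0.0135) and *Cd47* at -2.68 (adjusted p = 0.00992), in a fit that called 11.2% of all genes. The αD KO lung 12h libraries left in that fit, 1a and 2, were the ones on the 0h side of the library check (2.32% and 14.5%).

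The study asked what the loss of αD changes. The direction of these differences rests on genotype labels that *Itgad* RNA did not follow. No member differed between αD KO and WT at the threshold in any tissue or time by edgeR or DESeq2. The edgeR background was 0.0115% of 17356 genes in blood at 0h and 0% of 18232 in lung at 0h. At 12h it was 0% of 12596 in blood and 0% of 16764 in lung. In the same order DESeq2 called 0.0118%, 0.0163%, 0.117% and 1.35% of all genes. By edgeR 0, 1, 1 and 1 members had an unadjusted p under 0.05. In blood at 0h the member that differed most was *Itgb2l*, at 10.6 to 253 CPM in αD KO and 5.48 to 82.5 CPM in WT, with a log2 difference of 2.04 (SE 1.15, adjusted p = 1). The granule list was at 563 to 20270 CPM and 288 to 7434 CPM in the same groups. In blood at 12h *Itgb2l* was lower in αD KO (681 to 794 CPM) than in WT (1092 to 2035 CPM) without overlap, by -0.97 (SE 0.28, adjusted p = 0.962). *Itga4* (0.16, SE 0.38), *Icam1* (-0.38, SE 0.59) and *Cd47* (0.46, SE 0.33) overlapped between genotypes in blood at 12h.

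In lung the genotype difference rested on which libraries were used. At 0h *Itgb2l* was at 9.50 to 432 CPM in αD KO and 9.74 to 28.0 CPM in WT (3.18, SE 1.09, adjusted p = 0.983, edgeR), and without the libraries that stood apart the difference was 2.19 (SE 1.02). *Icam1* differed by 2.62 (SE 1.23) at 0h with all libraries and by -0.43 (SE 0.35) without αD KO lung 0h library 2. At 12h *Itga4* was higher in αD KO lung by 2.33 (SE 0.94, adjusted p = 0.598), and *Icam1* (-1.94, SE 1.19) and *Cd47* (-0.96, SE 0.64) were lower. Without αD KO lung 12h library 1b these were 2.81 (SE 0.70, adjusted p = 0.156), -3.42 (SE 1.35, adjusted p = 0.321) and -2.02 (SE 0.51, adjusted p = 0.161). With libraries 1a and 2 alone on both sides, 5 members were called: *Itga4* at 3.44, *Itgb1* at -1.33, *Itgb2l* at -1.45, *Icam1* at -3.98 and *Cd47* at -2.17 (adjusted p = 0.000817, 0.00725, 0.0117, 0.000115 and 0.00147). That fit called 30.1% of all genes. Both αD KO lung libraries used at 12h there were on the 0h side of the library check. In library 1b alone the αD KO lung level at 12h was 0.397 times the WT lung level for *Itga4* and 11.06 times for *Icam1*. It was 1.25 times for *Cd47*, 1.53 times for *Itgb1* and 0.864 times for *Itgb2l*. These ratios had no test, and *Icam1* was at only 31.1 CPM in WT lung 12h library 1b.

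Whether the 12h change differed between groups was tested by interaction terms, and with all libraries no member was called by edgeR or DESeq2. For the difference between genotypes DESeq2 called 0.00232% of all genes in blood and 2.67% in lung. For the difference between tissues it called 0.657% in WT and 1.93% in αD KO mice. The shares below are from edgeR. In blood the αD KO and WT changes differed by 0.47 (SE 0.63) for *Itga4*, 0.43 (SE 0.70) for *Cd47*, -0.23 (SE 0.90) for *Icam1* and -2.96 (SE 1.38) for *Itgb2l* on the log2 scale. The background was 0% of 19792 genes, and no member had an unadjusted p under 0.05. In lung they differed by 3.49 (SE 1.35, adjusted p = 0.411) for *Itga4*, -3.97 (SE 1.31, adjusted p = 0.410) for *Itgb2l*, -4.70 (SE 1.90, adjusted p = 0.421) for *Icam1* and -2.16 (SE 1.02, adjusted p = 0.488) for *Cd47*, beside 0% of 23211 genes and with 3 members at an unadjusted p under 0.05. Without the libraries that stood apart these were 3.52, -3.75, -2.95 and -1.79, with adjusted p of 0.144, 0.275, 0.532 and 0.308, and the αD KO lung 12h libraries left were again those on the 0h side. With libraries 1a and 2 alone, which keep these and αD KO lung 0h library 2, 4 members were called beside 13.2% of all genes: *Itga4* at 5.13, *Itgb2l* at -4.80, *Icam1* at -6.99 and *Cd47* at -3.45 (adjusted p = 0.0366, 0.0270, 0.0292 and 0.0357). In library 1b alone the log2 changes in αD KO and WT lung were -3.24 and -2.12 for *Itga4* and 5.40 and 5.57 for *Itgb2l*. They were 3.29 and -0.459 for *Icam1* and 2.39 and 2.11 for *Cd47*, values with no test.

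Between the tissues of WT mice the 12h changes differed by 0.16 (SE 0.74) for *Itga4*, -0.92 (SE 1.02) for *Itgb2l*, 1.47 (SE 1.30) for *Icam1* and -0.35 (SE 0.59) for *Cd47*. The background was 0% of 23497 genes by edgeR, and no member had an unadjusted p under 0.05. The median over all genes of this difference was 0.56 in WT and 0.44 in αD KO mice. In αD KO mice they differed by 3.20 (SE 1.18, adjusted p = 0.403) for *Itga4* and -3.07 (SE 1.05, adjusted p = 0.403) for *Cd47*, beside 0% of 22218 genes and with 2 members at an unadjusted p under 0.05. Without the libraries that stood apart *Itga4* was called (3.22, SE 0.65, adjusted p = 0.0426), beside 0.629% of all genes, but that fit leaves out the only αD KO lung 12h library on the 12h side and keeps the 2 on the 0h side. The sizes of these standard errors leave room for differences of several fold.

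Across all 24 libraries *Itga4* and *Cd47* ran opposite to each other, with a Pearson correlation of log2 CPM of -0.89. Every library with *Itga4* at or below 50.9 CPM had *Cd47* at or above 722 CPM, the αD KO lung libraries that stood apart among them. Every other library had *Itga4* at or above 161 CPM and *Cd47* at or below 336 CPM. *Itgb2l* and *Cd47* had a correlation of 0.88, *Itgb1* and *Icam1* of 0.74, and *Selplg* and *Cd44* of 0.61. *Pecam1* was at most at 0.55, with *Cd44*. These correlations describe libraries that share time, tissue and depth. The closest genes were *Rgs2* (r = 0.98), *Gm13073* (0.97) and *Selenop* (0.97) for *Itga4*, and *Ap3s1* (0.98), *Ywhaz* (0.98) and *Slc25a24* (0.97) for *Cd47*. For *Selplg* they were *Zyx* (0.92), *Nfam1* (0.90) and *Rin3* (0.90), and *Pla2g7* (0.93) was among the 3 closest to *Cd44*. *Ctsb* (0.90), *Acp5* (0.89) and *Il2rg* (0.89) were closest to *Itgb1*, and *Pebp1* (0.87), *Trp53* (0.82) and *Il18* (0.82) to *Pecam1*.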

How the data were processed

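Neutrophils were sorted as Ly6G+, CD11b+ and CD45.2+ cells, and RNA was amplified with SMART-Seq v4 and sequenced from both ends. The authors trimmed reads (Trimmomatic 0.36), aligned them (STAR 2.5.2b) and deposited whole-number counts of uniquely mapped exon reads per gene, on the build GRCm38 (mm10). The counting tool and its strand setting are not given in the sources used here. From the deposited counts, CPM (TMM scaling over all 24 libraries) and per-kilobase values were computed. Each comparison was fitted to its own groups with the quasi-likelihood test of edgeR 4.0.16 (R 4.3.3; TMM factors, filterByExpr), two-sided, with Benjamini-Hochberg adjustment over all genes tested, and a gene was called at an adjusted p under 0.05 with an absolute log2 fold change over 1. The script was tested on simulated data. Correlations are Pearson's r of log2 CPM (prior count 2).

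The 8 genes, the adhesion and marker lists and the libraries left out in alternatives were chosen with earlier results of these data known. The text names all 8 genes and, from the adhesion lists, up to 3 called genes with the largest rise and 3 with the largest fall in each time comparison. *Itgb7* lies outside this rule and was added after its values were seen. *Tmem2* and *Cd99* were not matched in the files by symbol. Values of a few single genes are not reported here. With 3 libraries against 3, an exact permutation test cannot go below p = 0.1, so none is given. Libraries 1a and 1b of a sample differed by far more than sampling noise (chi-square per degree of freedom 79.0 to 427) and were kept as separate libraries. Precision at these depths is limited by the spread between libraries.

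The labels do not say that equal library numbers mark a shared animal or day. Deviations of same-numbered libraries from their group means correlated above 0.1 for all 3 numbers in 6 of 12 comparisons. In WT blood 12h against 0h the correlations were 0.451, 0.584 and 0.161. The alternatives were RLE scaling, no filter on low counts, DESeq2 1.42.0, a single fit of all 8 groups, a replicate block, the 2 files of sample 1 summed, libraries 1a and 2 alone, each library left out in turn and, for αD KO lung, both libraries that stood apart left out.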

Additional observations from a re-analysis of the deposited data

How the results depend on the processing

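The 9 called changes of members kept their direction in all 117 values under the alternatives, and 37 of those values no longer passed the threshold. Of the 119 uncalled values, 46 changed sign in some alternative, 5 of them with an absolute log2 fold change over 1. The number of called members moved by over 1.5 times as follows, with the share of all genes that each fit called in parentheses, and the causes were not tested. In WT lung 12h against 0h it was 1 (1.65%) when all 8 groups were in a single fit (*Itgb2l* at adjusted p = 0.0526 and *Cd47* at 0.0953). In αD KO blood it was 4 with no filter on low counts (4.05%), 4 with DESeq2 (16.5%), 4 with libraries 1a and 2 alone (11%) and 0 in the single fit (0.236%), with *Itga4* and *Cd47* both at adjusted p = 0.0612. Between αD KO and WT lung at 12h it was 5 with libraries 1a and 2 alone (30.1%). Between WT lung and blood at 12h it was 1 with no filter (1.59%), 2 with DESeq2 (6.99%), 2 with the files of sample 1 summed (4.47%) and 2 with libraries 1a and 2 alone (28.2%). Between αD KO lung and blood at 12h it was 2 with no filter (3.13%), 1 with DESeq2 (7.17%), 2 with the files summed (8.27%), 4 with libraries 1a and 2 alone (34.3%) and 3 without the libraries that stood apart (11.2%). For the difference between tissues of the αD KO changes it was 1 without those libraries (0.629%), and for the difference between genotypes in lung it was 4 with libraries 1a and 2 alone (13.2%). With libraries 1a and 2 alone it was also 6 in WT blood (23.1%) and 4 in WT lung (37.2%), within 1.5 times. Single calls were also lost in WT blood for *Cd47* with no filter (adjusted p = 0.367) and *Icam1* in the single fit (0.331), and in WT lung for *Cd47* with no filter (0.112). Without each library in turn the number of called members ranged from 0 to 4 in WT blood, 0 to 4 in WT lung, 0 to 3 in αD KO blood, 0 to 2 between WT lung and blood at 12h and 0 to 3 between αD KO lung and blood at 12h. Over all genes these fits called 2 to 2804 genes in WT blood (1975 with all libraries), 0 to 3941 in WT lung (1340), 74 to 1414 in αD KO blood (1238), 0 to 2916 between WT lung and blood at 12h (6) and 0 to 1691 between αD KO lung and blood at 12h (8). With the replicate block the number was 5 in WT blood (18.4% of all genes), where *Itgb1* was added, 3 in WT lung (6.01%) and 3 in αD KO blood (10.7%), where the numbers did not pair all libraries and *Icam1* was added (1.62, adjusted p = 0.0157). The block changed no other call.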
